A study of Homo sapiens with 6 samples.

Results

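The genes described here are the neuroblastoma receptor kinase ALK, its relative LTK, their ligand ALKAL2, the heparin-binding growth factors pleiotrophin (PTN) and midkine (MDK), and the syndecans SDC1 and SDC3. They were chosen by symbol. Of 8 symbols named by that rule, 7 had a row among the 28862 genes listed, and 5 of these 7 had enough reads to be tested. PTPRZ1, a receptor phosphatase that binds pleiotrophin, was not analysed here. The series compares SH-SY5Y cells, a human neuroblastoma line, that received a control plasmid (3 libraries) with SH-SY5Y cells labelled as overexpressing SMN1 (3 libraries). The labels name no time point, vector, clone or separate culture, and the p-values below reflect how far these libraries scatter, possibly for technical reasons only. All 6 libraries were messenger RNA of whole cultures, in which fewer cells of a type and less RNA per cell cannot be told apart. SMN1 itself was at 19.6 to 20.4 counts scaled to library size (CPM) in the control libraries and at 14.8 to 16.6 CPM in the others, which goes against their label, so these are called SMN1-labelled below. SMN1 is nearly identical to its copy SMN2, so that its counts are uncertain.

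ALK is a receptor tyrosine kinase of the developing sympathetic nervous system and a recurrently mutated driver of neuroblastoma, and SH-SY5Y is widely used to study it. ALKAL2 activates ALK and LTK directly, with heparin-like chains as a partner on the cell surface. Pleiotrophin and midkine are related secreted proteins that bind the sugar chains of syndecans, glypicans and PTPRZ1, and both have also been reported to act through ALK. Midkine is abundant in embryonic neural tissue and in neuroblastoma. Syndecans are membrane proteoglycans that hold such ligands at the surface and are shed by proteases.

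Start regions of the genes whose levels differed between the groups are shown first, since ALK has alternative starts and the windows differ in base composition. Each is a RefSeq window on GRCh38.p14 of 300 bases, with 250 before the start and 50 after, written 5′ to 3′ on the strand of the gene. Capitals mark matches on either strand to GGGCGG (a GC box), TGANTCA (the AP-1 site), CACGTG (an E-box) or TATAAA. ALK has 2 annotated starts, one at the outer end of the gene (chr2:29921537-29921836, minus strand) and one inside it (chr2:29223774-29224073), and counts per gene cannot tell their transcripts apart. The PTN window is chr7:137343684-137343983 and the outer window of SDC1 is chr2:20225426-20225725, both on the minus strand.
ALK outer start: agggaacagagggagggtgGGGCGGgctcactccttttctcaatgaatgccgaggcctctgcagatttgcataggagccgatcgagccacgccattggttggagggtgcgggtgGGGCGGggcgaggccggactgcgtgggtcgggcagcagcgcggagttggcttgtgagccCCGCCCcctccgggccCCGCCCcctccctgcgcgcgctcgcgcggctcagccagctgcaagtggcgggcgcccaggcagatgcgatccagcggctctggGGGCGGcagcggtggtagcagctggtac
ALK inner start: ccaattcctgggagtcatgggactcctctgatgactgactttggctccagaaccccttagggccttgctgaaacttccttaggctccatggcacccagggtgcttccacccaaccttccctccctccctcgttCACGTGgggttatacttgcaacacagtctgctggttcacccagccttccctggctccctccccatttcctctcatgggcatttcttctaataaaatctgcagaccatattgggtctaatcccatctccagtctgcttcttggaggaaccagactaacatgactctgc
PTN start: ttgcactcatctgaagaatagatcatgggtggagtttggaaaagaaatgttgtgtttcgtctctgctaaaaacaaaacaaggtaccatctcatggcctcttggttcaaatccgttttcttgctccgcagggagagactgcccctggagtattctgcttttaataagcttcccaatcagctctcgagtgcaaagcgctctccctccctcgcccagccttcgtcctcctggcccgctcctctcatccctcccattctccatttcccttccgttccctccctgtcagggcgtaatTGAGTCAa
SDC1 outer start: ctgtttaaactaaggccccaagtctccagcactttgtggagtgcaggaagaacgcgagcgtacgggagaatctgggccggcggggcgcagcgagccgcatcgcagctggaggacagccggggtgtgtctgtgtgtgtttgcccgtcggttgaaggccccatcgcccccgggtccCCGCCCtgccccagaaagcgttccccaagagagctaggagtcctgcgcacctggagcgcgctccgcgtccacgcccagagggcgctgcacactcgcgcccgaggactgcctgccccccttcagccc
The outer ALK window held 5 matches to GGGCGG, the first beginning at base -231 relative to the start and the last at base 23 of the transcript, and its GC content was 71%. The inner ALK window had no GC box, 1 match to CACGTG beginning at base -117 relative to the start, and a GC content of 53%. The PTN window, at 50.3% GC, held no GC box and 1 match to TGANTCA, beginning at base 43 of the transcript. SDC1 had 1 GC box in each of its 2 windows, and its outer window had a GC content of 67.7%. Over 35116 windows of the same length, 45.0% held GGGCGG, 7.71% TGANTCA, 7.26% CACGTG and 11.5% TATAAA. No TATAAA was found in these windows. MDK was not matched to a window. A match describes letters only, and nothing follows from it about binding.

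Of the 5 tested genes, ALK and SDC1 were higher in the SMN1-labelled libraries, PTN and MDK were lower, and SDC3 did not pass the test. A call is an adjusted p of at most 0.05 in edgeR's quasi-likelihood test. Calls were common across the transcriptome: 28.0% of the 15829 genes tested were called higher and 28.2% lower, together 56.2%, and 60.7% had groups that did not overlap. Calls in the higher direction made up 49.8% of all calls, and 63.6% when libraries were scaled by their totals alone, which moved the median log2 fold change of all genes to 0.091. Among the tested members 4 of 5 (80%) were called and 4 had groups that did not overlap, a share over too few genes to set against that background. Read totals were 30379242 to 31286361 in the control and 31740870 to 40275498 in the SMN1-labelled libraries. Levels of 1 gene between groups are given in CPM scaled by TMM factors, and levels of different genes in FPKM, which divides by gene length.

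**Figure D1:**
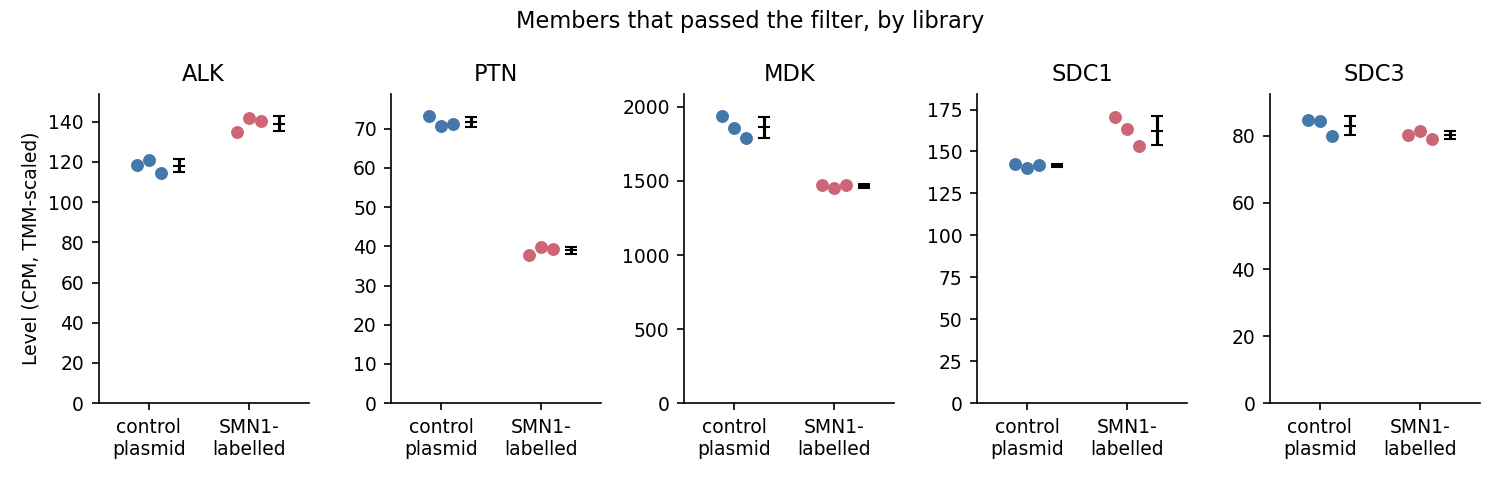
Levels of the 5 tested genes in each library, in CPM on linear axes that start at 0; points are libraries, and the bar beside them is the mean with its SD (n = 3). ALK and SDC1 sit higher and PTN and MDK lower in the SMN1-labelled libraries without overlap, while the SDC3 libraries overlap.

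Midkine was by far the most abundant member. Per length, MDK stood at 775 ± 38.4 FPKM (SD, n = 3) in the control libraries, at or above 99.9% of the genes in the FPKM table. PTN followed at 40.4 ± 0.961 FPKM, SDC1 at 35.8 ± 0.439, ALK at 14.6 ± 0.560 and SDC3 at 10.7 ± 0.483 (each SD, n = 3). Neighbours in this order did not overlap in any control library. In the SMN1-labelled libraries MDK was at 649 ± 5.48 FPKM, and SDC1 at 43.6 ± 2.07 stood above PTN at 23.4 ± 0.680. ALK at 18.3 ± 0.546 and SDC3 at 11.0 ± 0.155 FPKM came next. The order of PTN and SDC1 was therefore exchanged between the groups, again without overlap of neighbouring genes. LTK and ALKAL2 had a mean of 0.0467 FPKM each in the control libraries and could not be ordered.

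**Figure D2:**
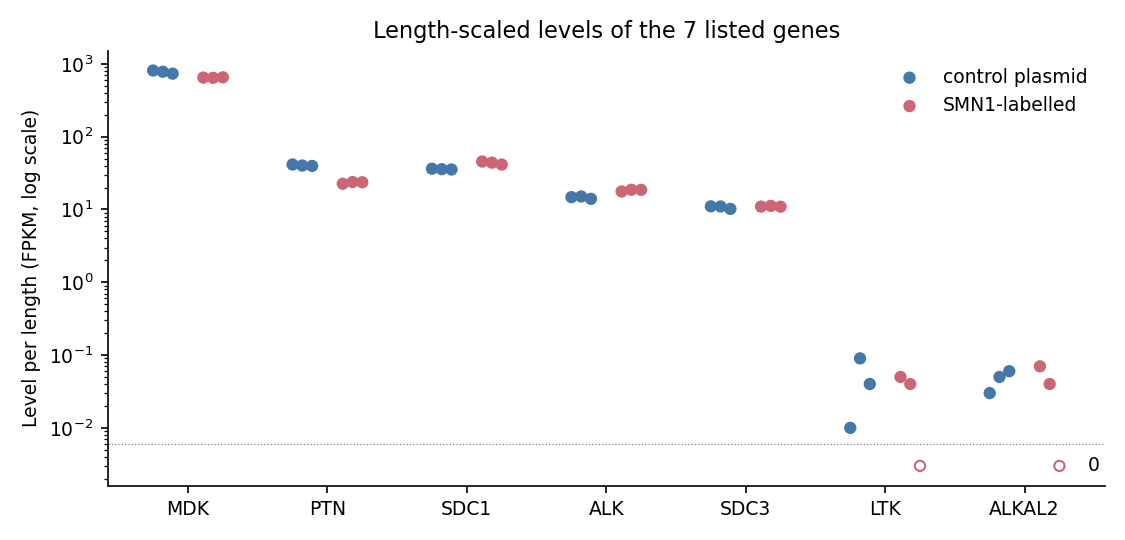
Length-scaled level (FPKM, log axis) of the 7 listed genes in each library, with open circles below the dotted line for values listed at 0. MDK lies above all others at 649 to 775 FPKM in mean, PTN and SDC1 change places, and LTK and ALKAL2 stay at 0.09 FPKM or below.

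ALK, the receptor, had 3560, 3697 and 3327 reads in the controls against 4523, 5892 and 4623 in the SMN1-labelled libraries. Scaled, these were 119, 121 and 115 CPM against 135, 142 and 141 CPM. Every SMN1-labelled library lay above every control library. ALK was 1.18-fold higher (log2 fold change 0.24, SE 0.04, 95% interval 0.16 to 0.31, edgeR adjusted p = 5.78e-06). The difference was small for this data set, since 54.3% of tested genes had a larger absolute log2 fold change. The gene spans 29192774 to 29921566 on chromosome 2 (minus strand, GRCh38, GENCODE v29), and no other annotated gene shares its exons.

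LTK, the related receptor kinase, was close to the detection limit. It had 1, 10 and 4 reads in the controls against 6, 6 and 0 in the SMN1-labelled libraries. Over each group this is 0.167 CPM (15 reads, exact Poisson 95% interval 0.0937 to 0.276) and 0.111 CPM (12 reads, 0.0574 to 0.194). ALKAL2, the ligand of both kinases, had 2, 3 and 4 reads against 5, 3 and 0, or 0.10 CPM (9 reads, 0.0459 to 0.191) and 0.0741 CPM (8 reads, 0.0320 to 0.146). The library with 0 reads of either gene allows up to 0.0913 CPM, the level of 3 reads. These intervals cover counting error only. Both genes fell below the filter on low counts and were not tested, and a difference between groups was not detectable at this depth. Part of the ALKAL2 exons, 8.35% of their length, is shared with an annotated gene on the other strand, AC079779.4, which had at most 1 read per library.

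Pleiotrophin showed the largest difference of the tested members. PTN had 2196, 2159 and 2068 reads in the controls against 1269, 1653 and 1292 in the SMN1-labelled libraries. In CPM these were 73.1, 70.7 and 71.3 against 37.9, 39.7 and 39.3. The groups were far apart relative to the spread within each. PTN fell 1.84-fold (log2 fold change -0.88, SE 0.04, 95% interval -0.96 to -0.80, edgeR adjusted p = 1.77e-14), and 4.40% of tested genes had a larger absolute change. The gene lies on chromosome 7 from 137227341 to 137343865 (minus strand), with 1713 nt of exons and a GC content of 43.2% in its longest transcript.

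Midkine moved the same way by less. MDK had 58137, 56798 and 51908 reads against 49371, 60470 and 48393, which is 1936, 1861 and 1789 CPM in the control and 1474, 1454 and 1472 CPM in the SMN1-labelled libraries. The control libraries varied more than the SMN1-labelled ones, and the groups did not overlap. MDK fell 1.27-fold (log2 fold change -0.34, SE 0.03, 95% interval -0.41 to -0.27, edgeR adjusted p = 6.86e-09). That call was lost when trends with gene length and GC content were removed within each library (log2 fold change -0.017, edgeR adjusted p = 0.707). MDK has 2196 nt of exons and a GC content of 62.0%, and it lies on chromosome 11 from 46380756 to 46383837 (plus strand).

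The balance of the growth factors shifted towards midkine. PTN amounted to 5.11%, 5.15% and 5.39% of MDK in FPKM in the controls, against 3.48%, 3.70% and 3.62% in the SMN1-labelled libraries. The groups did not overlap, and the log2 ratio differed by -0.54 (-4.26 ± 0.042 against -4.80 ± 0.045, SD, n = 3). An exact permutation test, two-sided, gave p = 0.1, the smallest that 3 against 3 libraries allow. The difference was -0.84 between the fitted values of PTN and MDK with length and GC trends removed.

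The syndecans, receptors for both growth factors, differed from each other. SDC1 had 4282, 4287 and 4120 reads in the control and 5704, 6797 and 5042 in the SMN1-labelled libraries, which is 143, 140 and 142 CPM against 170, 163 and 153 CPM. The SMN1-labelled libraries were all higher and more spread. SDC1 rose 1.15-fold (log2 fold change 0.20, SE 0.04, 95% interval 0.12 to 0.28, edgeR adjusted p = 1.11e-04). The value was 0.43 after removal of length and GC trends (edgeR adjusted p = 9.79e-10). It spans 20200797 to 20225433 on chromosome 2 (minus strand), with 3595 nt of exons and 60.1% GC.

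SDC3, the syndecan of neural tissue, had 2546, 2575 and 2314 reads against 2684, 3386 and 2595, or 84.8, 84.4 and 79.8 CPM against 80.1, 81.4 and 78.9 CPM. The groups overlapped. Its log2 fold change was -0.049 (SE 0.04, 95% interval -0.13 to 0.029, edgeR adjusted p = 0.281), with the sign turned when library totals alone were used (0.041), on log2(FPKM + 0.1) (0.039) and after removal of length and GC trends (0.048). SDC3 amounted to 30.4%, 30.7% and 28.7% of SDC1 in FPKM in the controls, against 24.1%, 25.5% and 26.3% in the SMN1-labelled libraries. This log2 ratio differed by -0.24 without overlap (exact permutation test, two-sided, p = 0.1, again the smallest possible), and was -0.38 between the fitted values with length and GC trends removed.

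**Figure D3:**
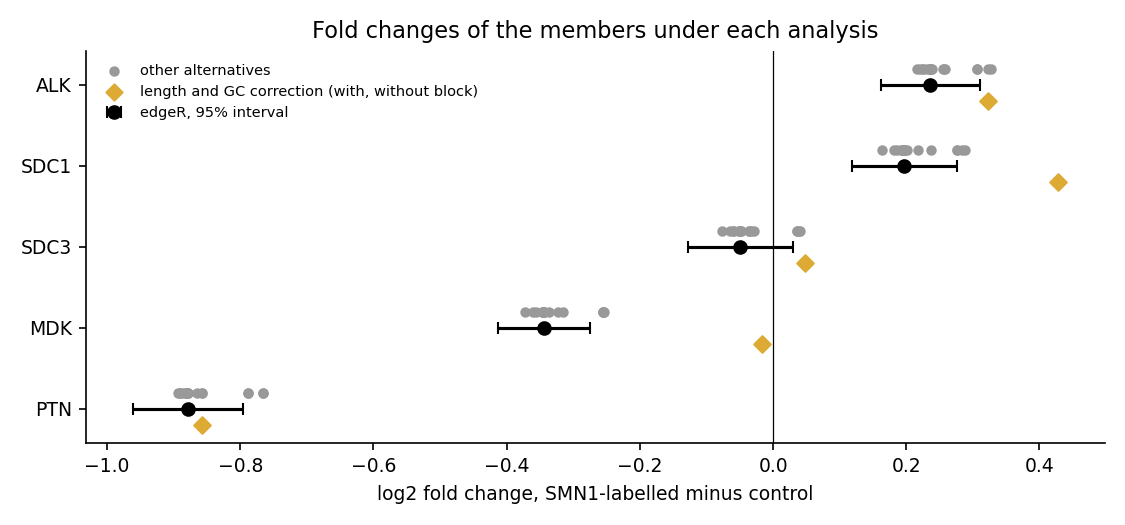
Log2 fold change (SMN1-labelled minus control) of the 5 tested genes: black points with 95% intervals from edgeR, grey points from the other alternatives, and diamonds after removal of length and GC trends, with and without the replicate block. PTN, ALK and SDC1 keep their side of 0 in all of them, MDK moves from -0.34 to -0.017, and SDC3 lies on either side of 0.

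**Figure D4:**
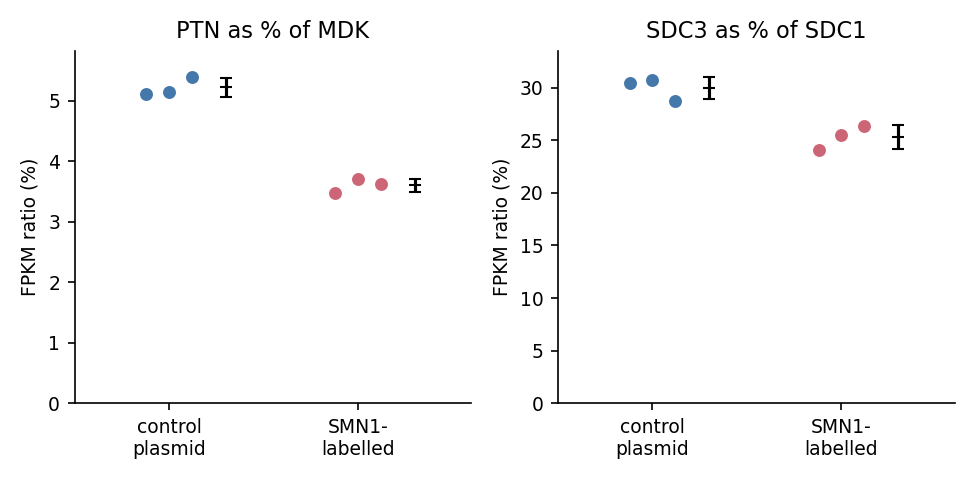
FPKM of PTN as a percentage of MDK and of SDC3 as a percentage of SDC1, on linear axes from 0; points are libraries, and the bar beside them is the mean with its SD (n = 3). PTN to MDK is 5.11 to 5.39% in the control and 3.48 to 3.70% in the SMN1-labelled libraries.

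Genes with the most similar course over the 6 libraries were sought among 13444 others by the root mean square distance of centred log2 CPM. For ALK these were the kinase gene STK39 (0.014), CCDC50 (0.015) and NBPF12 (0.017). PTN was nearest to the receptor phosphatase gene PTPRH (0.026), the transcription factor gene TBX3 (0.031) and the centromere gene CENPM (0.034). MDK was nearest to TMEM101 (0.012), EIPR1 (0.014) and AP1S1 (0.015). The nearest to SDC1 were VPS4A (0.016), TPM4 (0.016) and SRRM3 (0.018), and to SDC3 SH3PXD2B (0.011), LARS2 (0.012) and LIG3 (0.016). With 6 libraries in 2 groups, these distances mostly compare the size of the difference between groups.

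In 6 lists of genes around these members, 52.2% to 83.3% of the tested genes were called, against 56.2% of all genes tested (28.0% higher and 28.2% lower). Genes listed as other receptors and proteoglycans, a broad list whose binding to these ligands was not tested, moved both ways. Of 25 tested receptors and proteoglycans 8 rose and 6 fell (median log2 fold change -0.016, against 0.00087 over all genes tested). GPC2, a glypican of neural progenitors and neuroblastoma, fell from 43.8 ± 1.15 to 25.9 ± 0.755 CPM (log2 fold change -0.75, edgeR adjusted p = 2.18e-12). The syndecan SDC4 fell from 5.15 ± 0.887 to 3.14 ± 0.350 CPM (-0.72, edgeR adjusted p = 5.90e-05). The glypicans GPC4 (1.15 ± 0.0748 to 2.15 ± 0.116 CPM, 0.90) and GPC6 (7.83 ± 0.272 to 11.2 ± 0.0590 CPM, 0.52) rose (edgeR adjusted p = 1.20e-04 and 3.21e-06). SDC2, the remaining syndecan and named after its value was seen, rose from 108 ± 2.97 to 141 ± 5.08 CPM (0.39, edgeR adjusted p = 4.70e-09). Thus among the 4 syndecans SDC1 and SDC2 rose, SDC4 fell and SDC3 was not called. After removal of length and GC trends 8 members of this list were higher and 8 lower, and the log2 fold changes of GPC6 and SDC2 were 0.29 and 0.26.

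Genes for the sugar chains these ligands bind were called both ways on the heparan sulfate list and mostly higher on the chondroitin sulfate list. The heparan sulfate list includes genes of the linker that both chains share, so the lists do not separate the chains cleanly. Of the linker genes, XYLT2, B3GALT6 and B3GAT3 were called lower, and XYLT1, FAM20B and PXYLP1 higher. After removal of length and GC trends only XYLT1 (log2 fold change 0.35) and FAM20B (0.38) of these were still called. The other genes of the list called lower were HS6ST1, whose call was also lost after that removal, and SULF2. Of 23 tested heparan sulfate genes 7 rose and 5 fell (median log2 fold change 0.21), with 52.2% called against 56.2% of all genes tested. HS6ST2, a 6-O-sulfotransferase, rose 1.99-fold (24.1 ± 1.32 to 48.0 ± 1.71 CPM, edgeR adjusted p = 6.76e-14), and the 3-O-sulfotransferase HS3ST2 rose 2.06-fold from a low level (0.504 ± 0.103 to 1.02 ± 0.272 CPM, edgeR adjusted p = 0.00262). SULF2, which removes 6-O-sulfate outside the cell, fell 1.39-fold (111 ± 2.36 to 79.3 ± 2.61 CPM, edgeR adjusted p = 1.66e-10). B3GALT6, an enzyme of the linker, fell 1.16-fold (edgeR adjusted p = 6.67e-04), a call lost after removal of length and GC trends (log2 fold change 0.10, edgeR adjusted p = 0.0904). After that removal 6 members were higher and 2 lower. Of the 12 calls 6 were lost there, and 6 held under every alternative.

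Chondroitin sulfate is the chain carried by PTPRZ1. Of 12 tested genes 8 rose and 2 fell (median log2 fold change 0.30). These calls were 83.3% of a short list, against 56.2% of all genes tested (28.0% higher and 28.2% lower). The sulfotransferase CHST7 rose 1.62-fold (6.82 ± 0.468 to 11.1 ± 1.02 CPM, edgeR adjusted p = 3.49e-07) and the epimerase homolog DSEL 1.50-fold (9.09 ± 0.492 to 13.7 ± 0.768 CPM, edgeR adjusted p = 4.58e-07). CHPF, a polymerising factor, and CHST14, a dermatan sulfotransferase, were the 2 called lower, by 1.10-fold and 1.11-fold (edgeR adjusted p = 0.0167 and 0.0234). Neither call held when control library 1, control library 2 or SMN1-labelled library 2 was left out, and CHST14 was also lost when SMN1-labelled library 3 was. CHPF was called higher after removal of length and GC trends (log2 fold change 0.16, edgeR adjusted p = 0.00351), where 8 members were higher and 0 lower by edgeR and DSEL stood at 0.33. Of these 12 genes, 1 (CHST11) was lower there at an unadjusted p under 0.05, and DESeq2 without that correction called 1 lower.

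Adaptors and kinases that act below ALK were more often called higher. Of 44 tested genes 27 rose and 7 fell (median log2 fold change 0.20). These calls were 77.3% of the tested genes, against 56.2% of all genes tested (28.0% higher and 28.2% lower). After removal of length and GC trends 24 were called higher and 3 lower. Of the 34 calls 11 were lost there, and 19 held under every alternative. CRK, an adaptor that links receptor kinases to RAP1, rose 1.61-fold (31.3 ± 1.06 to 50.4 ± 2.62 CPM, edgeR adjusted p = 1.92e-11), and PIK3CB, a catalytic subunit of PI3 kinase, rose 1.52-fold (2.95 ± 0.410 to 4.48 ± 0.553 CPM, edgeR adjusted p = 4.14e-04). MAPK3, which encodes the kinase ERK1, fell 1.36-fold (34.6 ± 1.42 to 25.5 ± 0.594 CPM, edgeR adjusted p = 4.23e-08). The docking protein gene FRS3 fell 1.44-fold (edgeR adjusted p = 2.57e-04), a call lost after removal of length and GC trends (edgeR adjusted p = 0.0635). With those trends removed, MAPK3 stood at -0.20 and PIK3CB at 0.35 on the log2 scale.

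Some related genes at the same step moved apart, which was noticed after their values were seen. MAP2K1 rose (log2 fold change 0.27) and MAP2K2 fell (-0.26), with edgeR adjusted p = 3.37e-06 and 1.09e-05. NRAS rose (0.48, edgeR adjusted p = 1.16e-05) and HRAS fell (-0.34, edgeR adjusted p = 9.61e-08). The fall of HRAS was lost after removal of length and GC trends (0.035, edgeR adjusted p = 0.395). The adaptor gene SHC1 and the phosphatase gene PTPN11 rose by 0.32 and 0.48 (edgeR adjusted p = 2.52e-08 and 1.18e-09). With length and GC trends removed NRAS (0.30), PTPN11 (0.25) and MAP2K2 (-0.11) were closer to 0 and still called by edgeR. SHC1 (0.46) and MAP2K1 (0.35) were farther from 0 there and also still called.

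Genes reported to follow ALK or ERK activity in neuroblastoma cells had no common direction. Of 22 tested, 8 rose and 9 fell (median log2 fold change -0.073), with 77.3% called against 56.2% of all genes tested. MYCN, which encodes the neuroblastoma oncoprotein N-MYC, rose from 7.35 ± 0.670 to 11.6 ± 0.647 CPM (log2 fold change 0.66, edgeR adjusted p = 4.41e-07). PHLDA1 rose by 1.55, and FOS and the kinase gene RET fell by 3.40 and 1.98 on the log2 scale (edgeR adjusted p = 2.65e-12, 2.89e-22 and 1.15e-19). The ERK phosphatase gene DUSP4, named after its value was seen, rose from 123 ± 3.26 to 189 ± 1.90 CPM (0.62, edgeR adjusted p = 5.45e-13). The feedback inhibitor genes SPRY4 (0.24), SPRED1 (0.60) and SPRED2 (0.16), also named after their values were seen, rose with edgeR adjusted p = 4.67e-04, 6.21e-04 and 0.00334. Most of the 8 genes that rose are thus named here, and most of the 9 that fell are not. SPRY2 (0.010), DUSP6 (-0.12) and the transcription factor gene ETV5 (-0.025) were not called (edgeR adjusted p = 0.869, 0.0513 and 0.708), and DUSP6 was called lower with length and GC trends removed (-0.19, edgeR adjusted p = 0.00433). ALK, higher by 0.24, thus stood beside downstream genes on both sides of 0.

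Partners of PTPRZ1 and the syndecans inside the cell, and the proteases that shed syndecans, were called higher in 10 and lower in 2 of 17 tested (median log2 fold change 0.12). These calls were 70.6% of the tested genes, against 56.2% of all genes tested (28.0% higher and 28.2% lower). The shedding protease ADAM17 rose 1.43-fold (63.0 ± 1.42 to 90.2 ± 2.77 CPM, edgeR adjusted p = 7.91e-11). CASK, a scaffold that binds syndecan tails, rose 1.37-fold (21.9 ± 1.37 to 30.1 ± 0.342 CPM, edgeR adjusted p = 9.33e-08). The membrane protease gene MMP14 fell 1.45-fold (5.71 ± 0.494 to 3.94 ± 0.276 CPM, edgeR adjusted p = 1.85e-04) and the scaffold gene DLG4 1.25-fold (38.2 ± 0.585 to 30.6 ± 0.462 CPM, edgeR adjusted p = 1.46e-06). After removal of length and GC trends 8 members were higher and 3 lower, with ADAM17 at 0.26 and CASK at 0.27 on the log2 scale.

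**Figure D5:**
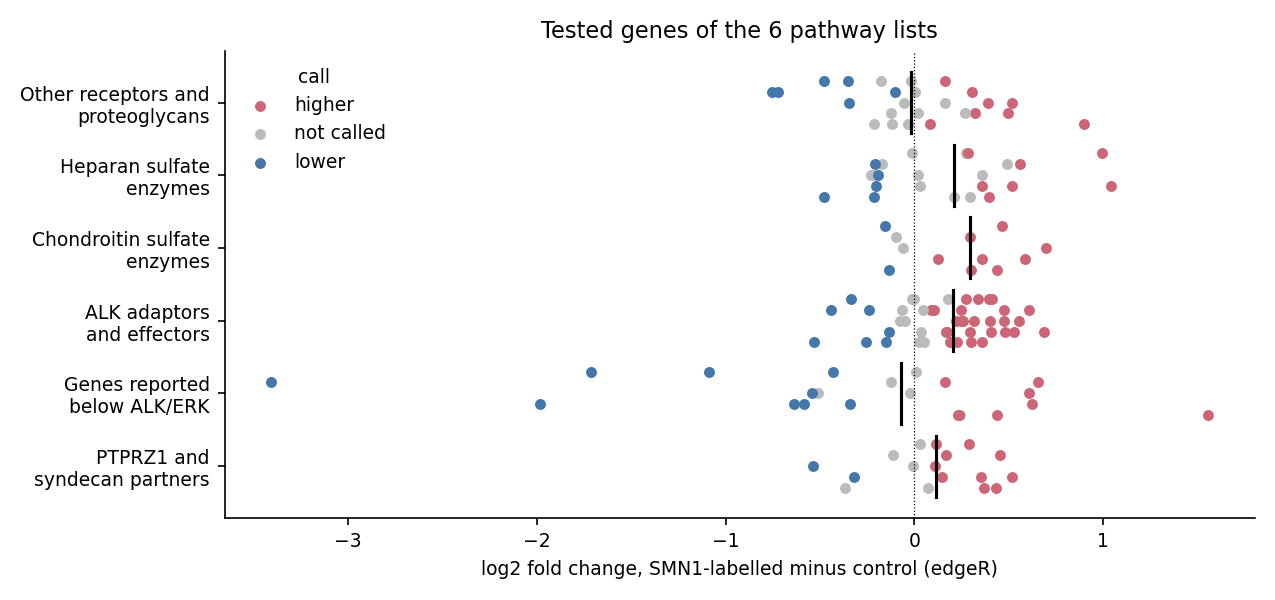
Log2 fold change of each tested gene in the 6 pathway lists (one point per gene, coloured by its call, spread vertically only for legibility), with a black bar at the list median. Medians run from -0.073 for genes reported below ALK and ERK to 0.30 for chondroitin sulfate enzymes, and the points of every list fall on both sides of 0.

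Among cell identity markers, 100% of 11 tested adrenergic, 60% of 10 mesenchymal and 75% of 4 Schwann cell markers were called. The share over all genes tested was 56.2%, and these lists are short. Of 12 adrenergic neuroblastoma markers 11 were tested, 5 of them higher and 6 lower, with a summed level of 26718 to 28508 CPM in the control and 33980 to 35251 CPM in the SMN1-labelled libraries. Their median log2 fold change was -0.091, and most of the sum came from the granin genes CHGA (13926 to 15440 CPM in mean) and CHGB (7761 to 13386 CPM). TH, the rate-limiting enzyme of catecholamine synthesis, was not tested, at 0.169 ± 0.122 and 0.0201 ± 0.0174 CPM. Of 12 mesenchymal markers 10 were tested, 6 lower and 0 higher by edgeR, and their sum went from 856 to 893 CPM down to 639 to 707 CPM (median log2 fold change -0.41). None was higher at an unadjusted p under 0.05 (0 by edgeR), and DESeq2 also called 0 higher. Of 8 Schwann cell markers SOX10, FOXD3 and CDH19 had no row and 4 were tested, 1 higher and 2 lower, with a sum of 15.0 to 15.2 against 18.6 to 19.2 CPM and a median log2 fold change of -0.51. GFRA3, the member called higher, made up most of that sum (10.3 and 16.5 CPM in mean). The part of these marker differences in the levels of ALK, PTN, MDK and the syndecans was not tested.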

How the data were processed

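Messenger RNA of SH-SY5Y cells was sequenced as 6 stranded paired-end libraries, 3 per group, per the labels' protocols. The authors deposited read counts per gene and FPKM values per gene (28862 and 28501 genes). HISAT2, DESeq2 and GRCh38 are named per the submitters' processing notes, while the counting tool, strand setting and annotation were not given in the sources used here. Groups were taken from the labels. Counts were tested in R 4.3.3 by the quasi-likelihood test of edgeR 4.0.16 (filterByExpr, TMM scaling, Benjamini-Hochberg adjustment over all 15829 tested genes, call at 0.05). Members and lists were chosen with earlier results of these data known. Named were all members and, per list, up to 2 called genes in each direction with the largest absolute log2 fold change among those at 1 CPM or more in a group, and per tested member the 3 genes with the most similar course. Other list genes and the markers named singly fall outside this rule, and only some of them are marked as named after their values were seen. Counts and intervals rest on read totals of 30379242 to 40275498 per library, at which 3 reads equal 0.0721 to 0.103 CPM.

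Alternatives were DESeq2 1.42.0, limma 3.58.1 with voom, other scaling factors, other filters, a replicate block, each library left out, limma on log2(FPKM + 0.1) and log2(FPKM + 1), and removal of smooth trends with exonic length and GC content (GENCODE v29, 15663 genes). Libraries within a group differed by more than sampling noise (chi-square divided by its degrees of freedom was 2.41 to 4.12, and 54.3 to 61.8 between groups). Of 8 member symbols, 7 had a RefSeq promoter window.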

Additional observations from a re-analysis of the deposited data

How the results depend on the processing

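ALK, PTN and SDC1 kept their direction and their call under all 19 alternatives, with log2 fold changes of 0.22 to 0.33, -0.89 to -0.77 and 0.16 to 0.43, and SDC3 was called under none. MDK was called under all but removal of length and GC trends, alone (-0.0165) and with the replicate block (-0.0162). The log2 ratios of PTN to MDK and of SDC3 to SDC1 stayed within -0.56 to -0.51 and -0.27 to -0.21 on CPM, on FPKM + 0.1 and with each library left out. As the difference of the fitted values after removal of length and GC trends, an alternative chosen after seeing the data, they were -0.84 and -0.38. Over all genes, 4466 were called lower, and 2963, 2965 and 2883 on log2(FPKM + 0.1), log2(FPKM + 1) and log2(FPKM + 1) without a filter, where 62.6%, 62.6% and 61.9% of calls were higher. Heparan sulfate genes called lower numbered 5, against 3 by library totals, 3 under each FPKM setting, and 2 after removal of length and GC trends with or without the block. Chondroitin sulfate genes called lower numbered 2, against 1 by DESeq2, 0 by library totals, each FPKM setting and removal of length and GC trends with or without the block, and 0 to 3 with 1 library left out. ALK effectors called lower numbered 7, against 4 by library totals, 3 after removal of length and GC trends with or without the block, and 3 on unfiltered log2(FPKM + 1). Such net counts hide calls that were lost while others were gained. Calls lost after removal of length and GC trends numbered 3 of 14 for receptors, 6 of 12 for heparan sulfate and 3 of 10 for chondroitin sulfate. They numbered 11 of 34 for ALK effectors, 2 of 17 for genes below ALK and ERK, and 3 of 12 for PTPRZ1 and syndecan partners. The cause of these shifts was not tested.

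The replicate numbers did not pair the libraries: deviations of same-numbered libraries correlated at 0.027, -0.013 and -0.11 over 10102 genes. No library correlated best with its own number. With a replicate block 4326 genes were called higher and 4382 lower, and 8659 of these calls were shared with the fit without it. LTK and ALKAL2, with at most 10 reads per library, are limited by depth. Neither passed the filter, so most alternatives gave no value for them, and PTPRZ1 gave none. Without a filter on low counts their log2 fold changes were -0.56 for LTK and -0.40 for ALKAL2 (edgeR adjusted p = 0.560 and 0.757).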
